A study of Mus musculus with 127 samples.

Results

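The genes described here are 45 members of the cytosolic, mitochondrial and endoplasmic reticulum chaperone systems, among 53465 genes in the count table of a single-cell study of mouse striatal neurons. They were chosen by name as heat shock proteins, J proteins, co-chaperones, the cytosolic chaperonin and the transcription factors of the heat shock response. All 45 were found and all 45 passed the filter on low counts. They comprise 2 cytosolic HSP90 genes, 8 genes of the HSP70 and HSP110 families, 7 J proteins, 7 co-chaperones, 3 small heat shock proteins, 8 subunits of the chaperonin TRiC, 4 mitochondrial chaperones, 4 chaperones of the endoplasmic reticulum and 2 heat shock factors.

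Chaperones bind unfolded or partly folded proteins and keep them from aggregating. HSP70 proteins act first, with J proteins that deliver substrates and co-chaperones that set the pace of the cycle, and HSP90 takes over later folding steps of kinases and receptors. TRiC is a ring-shaped chamber that encloses actin, tubulin and other proteins, and in model systems it has been found to limit aggregation of huntingtin fragments with long glutamine tracts. Heat shock factor Hsf1 binds heat shock elements in promoters and switches on the inducible members when unfolded protein accumulates. Neurons are known for a weak heat shock response.

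RNA came from single cells of C57BL/6 mice, 113 striatal neurons and 14 astrocytes. The neurons were taken from newborn animals, grown on islands of cortical astrocytes and infected with lentivirus that carried human huntingtin exon 1 joined to GFP, with an expanded tract of 97 glutamines (97Q) or a normal tract of 25 (25Q). RGFP109, an inhibitor of histone deacetylases HDAC1 and HDAC3, was given at 100 nM from day 6 in vitro and again every 3 days, and vehicle was DMSO. Neurons were aspirated through the recording pipette at day 15, a method known as Patch-seq. There were 26 neurons of 97Q with RGFP109, 26 of 97Q with vehicle, 23 of 25Q with RGFP109 and 29 of 25Q with vehicle, spread over batches 1, 2 and 3. Batch 3 also held the 14 untreated astrocytes, from cortex, and 9 vehicle-treated striatal neurons infected with an empty vector. The model is an overexpressed fragment in culture beside the neurons' own huntingtin, the promoter of the construct is not given in the sources used here, and no label names the animal or culture of a cell. Total counts per cell ran from 999700 to 9263305. By the defining markers, 9 pan-neuronal genes summed to a median of 5504 to 7514 CPM (counts scaled to the library total) in the groups of neurons and to 299 CPM in astrocytes, whereas 15 astrocyte genes summed to a median of 19900 CPM in astrocytes and 430 to 881 CPM in neurons. Gjb6 of the astrocyte list was at 0 in astrocytes. In 12 neurons the astrocyte markers reached 10% of the astrocyte median or more. They were 3 of 97Q RGFP109, 2 of 97Q vehicle, 3 of 25Q RGFP109, 3 of 25Q vehicle and 1 with the empty vector.

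The heat shock element, the site bound by Hsf1, consists of alternating units of GAA and its reverse complement TTC. The 250 bases before the start of transcription were searched on both strands in RefSeq promoters of build GRCm38.p6, which matched 36 of the 45 members. The search used a run of 2 units (GAANNTTC or TTCNNGAA) and a run of 3 units (GAANNTTCNNGAA or TTCNNGAANNTTC), and every 3-unit match also holds 2-unit matches. The 2-unit run was found in 13 of the 36 matched members, against 14.5% of 27025 genes with a promoter. The 3-unit run was found in Hspd1, Hspe1 and Dnajb6, 3 of the 36, against 0.514% of those genes. Hspb1, Cdc37, Dnajb4 and Stub1 also had a 2-unit match and are not shown. Of the TRiC subunits, Cct2 and Cct5 had a match, Tcp1, Cct3, Cct6a, Cct7 and Cct8 had none, and Cct4 was not among the matched members. Capitals mark the run of matched units in the stretches below. They are 60 bases long, or 30 where an annotated exon reaches in.
Hspe1, chr1:55088053-55088082, plus strand: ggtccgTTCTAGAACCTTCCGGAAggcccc
Hspd1, chr1:55088053-55088082, minus strand: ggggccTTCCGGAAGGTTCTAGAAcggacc
Dnajb6, chr5:29735843-29735872, plus strand: cagctccgaGAATCTTCCGGAAcgctagac
Hspa1a, chr17:34972227-34972286, minus strand: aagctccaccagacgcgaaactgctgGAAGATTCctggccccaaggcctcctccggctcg
Hspa1b, chr17:34959309-34959368, minus strand: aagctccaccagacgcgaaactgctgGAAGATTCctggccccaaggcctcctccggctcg
Hsph1, chr5:149636351-149636380, minus strand: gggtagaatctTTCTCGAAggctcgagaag
Dnaja1, chr4:40722333-40722362, plus strand: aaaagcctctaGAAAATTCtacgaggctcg
Cct2, chr10:117063384-117063443, minus strand: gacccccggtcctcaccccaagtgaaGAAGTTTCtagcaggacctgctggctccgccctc
Cct5, chr15:31601862-31601891, minus strand: acagcggccgaTTCCAGAAgctactctgcg

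Hspd1 and Hspe1, which encode the mitochondrial chaperonin and its lid, lie head to head and share a single element, so the lines for Hspe1 and Hspd1 are the same bases read on opposite strands. The element lies 72 to 89 bases before the start of Hspe1. The stretches of Hspa1a and Hspa1b, the inducible HSP70 pair, are identical, and their 250 bases before the start differ at 3 positions. Dnajb1, the J protein that partners inducible HSP70, and Bag3 had no match in this window, which says only that these letters are not there. A match is a description of the letters and not of binding.

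The constitutive members were abundant. On the scale of CPM per kilobase of exon, averaged over the 104 neurons with a transgene, Hsp90ab1 (constitutive HSP90) was highest at 778 CPM per kb and lay at the 99.8th percentile of the genes tested. Hsp90ab1 had a count in 100% of these neurons and gave 19.0% of all counts of the 45 members. The 8 TRiC subunits ranged from 50.6 CPM per kb for Cct4 to 204 CPM per kb for Cct8, and 7 of the 8 had a count in every neuron. Hspa8, the constitutive HSP70, was at 155 CPM per kb, Hspa5, the HSP70 of the endoplasmic reticulum also called BiP, at 187 CPM per kb, and Stip1, the adaptor between HSP70 and HSP90, at 174 CPM per kb. Dnaja2 (71.5 CPM per kb) led the J proteins and Hspa9 (56.6 CPM per kb) the mitochondrial members. Cryab led the small heat shock proteins at 45.7 CPM per kb, though its median in neurons was far lower than in astrocytes, as described below.

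The strictly inducible members were close to silent. Hspa1a averaged 0.666, Hspb1 0.747, Hspa1b 0.952 and Bag3 1.57 CPM per kb. Hspa1a had a count in 41.3%, Bag3 in 33.7%, and Hspa1b and Hspb1 each in 25.0% of the 104 neurons. Hsf1 itself was at 4.21 CPM per kb with a count in 76.9% of neurons, and Hsf2 was at 1.97 CPM per kb. Parts of several members are shared with other loci. Of their 50-base windows, 66.3% of Hspa1a and 62.3% of Hspa1b are also found in another gene, mostly in each other, as are 50.1% of Hspb1, 47.5% of Hsp90aa1, 42.1% of Hspd1 and 39.4% of Hspa8. The share was 33.7% for Stub1, with Jmjd8, 22.8% for Hspe1, 21.0% for Dnajb6 and 20.6% for Dnaja1. Counts of these genes are uncertain to that extent.

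**Figure D1:**
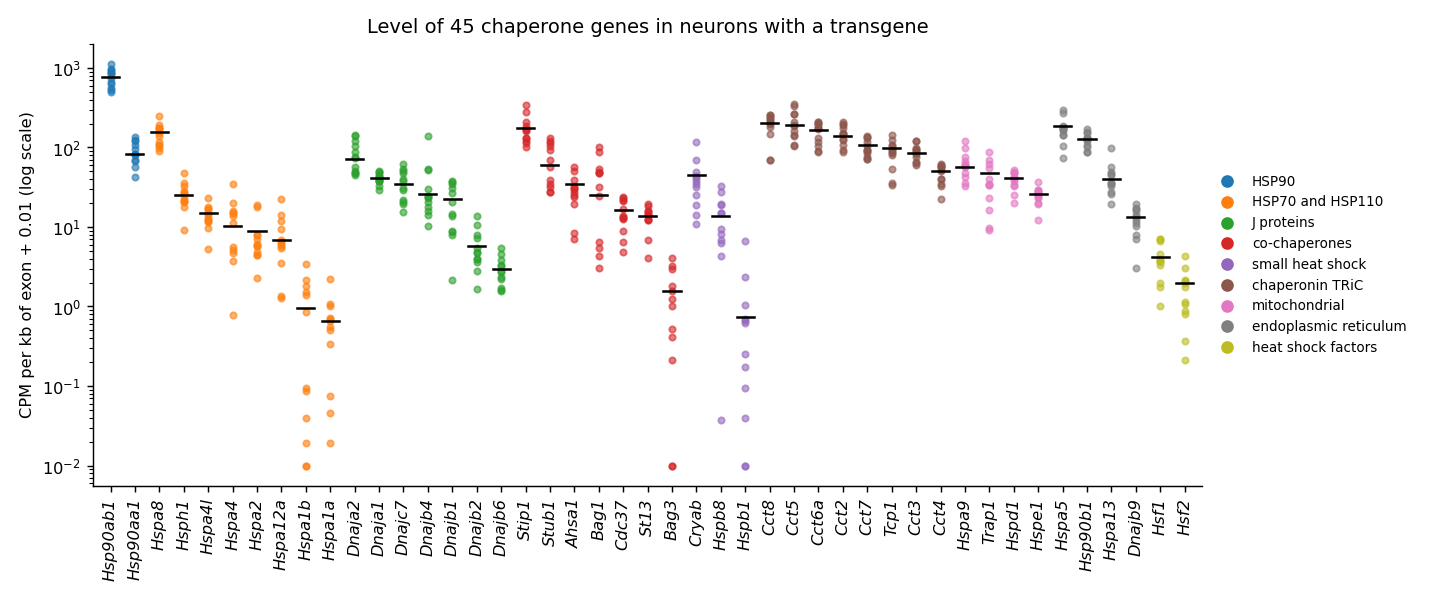
Level of each of the 45 genes in neurons with a transgene, as CPM per kb of exon on a log axis with 0.01 added, grouped by role. Points are the 12 sums of a group within a batch and bars are means over the 104 neurons. Hsp90ab1 stands highest at 778 CPM per kb, and Hspa1a, Hspa1b, Hspb1 and Bag3 stand lowest, with sums at 0 drawn at 0.01.

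Because no animal is named, the cells of each group within a batch were summed and the batch served as replicate, which gave 3 sums per group. The sums of batch 3 held 11 to 15 cells each and those of batch 2 far fewer. By title, batch 2 held cells 9 to 11 of 97Q vehicle and cells 11 to 14 of 25Q vehicle. It held cells 9 to 12 of 97Q RGFP109 and of 25Q RGFP109. Values of batch 2 thus rest on few cells. In the 97Q neurons under vehicle, the comparison that asks what the expanded tract changed, no member differed past the threshold from 25Q neurons. By the quasi-likelihood test of edgeR with Benjamini-Hochberg adjustment over 15091 genes, 0 genes were called (0.0%), and the smallest adjusted p of a member was 0.969. At an unadjusted p under 0.05 there were 2 of the 45 members, Dnajb1 and Bag1, against 3.96% of all genes. DESeq2, run as an alternative, called 213 genes but no member. The 45 members as a whole had a median log2 fold change of 0.20 (0.12 without batch 1 and 0.13 without batch 2), with 32 higher and 13 lower, beside a median of 0.06 over all genes tested. In all 3 batches 12 members were higher and 2 were lower, against 15.8% and 13.2% of all genes. The 12 were Tcp1, Cct2, Cct3, Cct5, Cct6a, Cct7, Hspa4, Hspa5, Hspa13, Hspb8, Dnajb1 and Bag1, and the 2 were Hspa1b and St13. Summed over the 45 members, their share of all counts was 1.22%, 1.48% and 1.56% in batches 1, 2 and 3 of 97Q vehicle, against 1.09%, 1.24% and 1.33% in 25Q vehicle.

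Of the 8 TRiC subunits, 6 were among the 12 members higher in all batches. The median log2 fold change of the 8 subunits was 0.35, or 0.20 without batch 1, 0.29 without batch 2 and 0.22 without batch 3, and the medians of the within-batch differences were 0.39, 0.25 and 0.12 in batches 1, 2 and 3. Cct2 had 395, 506 and 487 CPM in batches 1, 2 and 3 of 97Q vehicle, against 278, 444 and 317 CPM in 25Q vehicle. Cct2 was higher within each batch, while the 2 groups overlapped across batches, and its log2 fold change was 0.40 (SE 0.232). Tcp1, the subunit after which the complex was named, had 538, 519 and 713 CPM in 97Q vehicle, against 440, 270 and 633 CPM in 25Q vehicle. Its log2 fold change was 0.45 (SE 0.263), again with overlapping groups. Cct6a had a log2 fold change of 0.41 (SE 0.255), Cct8 of 0.45 (SE 0.310), Cct3 of 0.29 (SE 0.242), Cct5 of 0.24 (SE 0.230), Cct7 of 0.10 (SE 0.182) and Cct4 of -0.20 (SE 0.303). The within-batch differences of Cct8 were 0.28, 1.54 and -0.37, so its value rests on batch 2, without which its log2 fold change was -0.0230.

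Dnajb1 had the smallest p of the members in this comparison. It had 97.7, 25.0 and 121 CPM in 97Q vehicle, in batch order, against 66.2, 6.86 and 28.7 CPM in 25Q vehicle. The log2 fold change was 1.41 (SE 0.563), with an unadjusted p of 0.0324 from edgeR's quasi-likelihood test that did not survive adjustment (0.969). Over single cells, Dnajb1 had a median of 59.5 CPM in 97Q vehicle and of 25.5 CPM in 25Q vehicle, and 1 cell of 97Q vehicle gave 25.8% of the group's Dnajb1 counts. Bag1, a nucleotide exchange factor of HSP70, had 136, 117 and 8.80 CPM in 97Q vehicle, against 33.3, 65.3 and 5.74 CPM in 25Q vehicle. Its log2 fold change was 1.07 (SE 0.475), but the medians over single cells were 9.45 CPM in 97Q vehicle and 9.55 CPM in 25Q vehicle, and single cells gave 34.3% and 37.1% of the counts of the 2 groups. The sums of Bag1 thus rested on few cells in both groups. Bag1 also differed between batches by more than between groups, with low sums in batch 3 throughout.

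Among the inducible members the values did not go one way. Hspa1b had 0.0817, 0 and 0.240 CPM in the 97Q vehicle sums, against 4.28, 0.216 and 2.34 CPM in those of 25Q vehicle, with a count in 3 of 26 neurons of 97Q vehicle and 8 of 29 of 25Q vehicle. The sum at 0 allows up to 0.346 CPM, taken as 3 counts and covering counting error only. Hspa1a, its near-identical neighbour, had 0.0272, 6.46 and 0.976 CPM in 97Q vehicle, against 2.94, 0.108 and 2.11 CPM in 25Q vehicle. The 2 genes share most of their sequence, and at these counts the fitted fold changes depend on the prior count and are no measure of size. Hsph1, the HSP110 exchange factor, had 156, 190 and 148 CPM in 97Q vehicle, against 350, 236 and 129 CPM in 25Q vehicle, a log2 fold change of -0.51 (SE 0.364). Hsp90aa1, the inducible HSP90, had a log2 fold change of 0.04 (SE 0.223), with 274, 486 and 424 CPM in 97Q vehicle and 264, 531 and 329 CPM in 25Q vehicle. Hsp90b1, the HSP90 of the endoplasmic reticulum, had a log2 fold change of -0.35 (SE 0.264).

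The other genes of the pathway, taken from lists of partners that hold no member, showed no called gene either. Prefoldin, which hands actin and tubulin to TRiC, had 5 of 6 subunits higher in 97Q vehicle than in 25Q vehicle with a median log2 fold change of 0.14. Of 17 further partners of HSP90 and HSP70, 9 were higher with a median of 0.08, of 16 further J proteins 11 were higher with a median of 0.18, and of 17 genes of endoplasmic reticulum folding and the unfolded protein response 11 were higher with a median of 0.22. The makeup of the sums differed between the groups. The 11 striatal GABAergic markers, none at 0, summed to 1194, 1227 and 1750 CPM in 97Q vehicle, against 3436, 4806 and 5094 CPM in 25Q vehicle, and their part in the chaperone values was not tested. In whole-cell samples such as these, a lower share of a marker and less RNA of it per cell cannot be told apart.

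Under RGFP109, 97Q neurons had lower values of most members than 97Q neurons under vehicle, the comparison that asks what the drug changed in neurons with the expanded tract. The median log2 fold change of the 45 members was -0.32, with 11 higher and 34 lower, beside a median of -0.04 over all genes tested. By the quasi-likelihood test of edgeR with Benjamini-Hochberg adjustment no gene was called (0.0%), and the smallest adjusted p of a member was 0.999. Tcp1 was the only member at an unadjusted p under 0.05, 1 of 45 against 2.48% of all genes. DESeq2 called 109 genes and no member. In all 3 batches 18 members were lower and 1, Hspa4, was higher, against 14.1% and 9.64% of all genes. The 18, none of them a small heat shock protein, were Hsp90aa1 and Hsp90ab1, Hspa8, the J proteins Dnaja2, Dnajb4 and Dnajc7, the co-chaperones Stip1, Ahsa1 and Bag1, the TRiC subunits Tcp1, Cct2, Cct5, Cct6a and Cct7, Trap1 and Hspe1 of mitochondria, Hspa13 of the endoplasmic reticulum, and Hsf2. The 45 members together took 0.976%, 0.898% and 1.33% of counts in batches 1, 2 and 3 of 97Q RGFP109, against 1.22%, 1.48% and 1.56% in 97Q vehicle. Single cells of 97Q RGFP109 had a median share of 1.17%, against 1.38% in 97Q vehicle. A few treated cells stood low, at 0.343% and 0.393% in batch 1 and 0.339% in batch 2. The lowest cell of 97Q vehicle was at 0.772%. The part of these low cells in the lower sums was not tested. This comparison shares the 97Q vehicle sums with the one between 97Q and 25Q under vehicle, so high values in those 3 sums enter both, with opposite sign.

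Tcp1 had 401, 180 and 464 CPM in the sums of 97Q RGFP109, against 538, 519 and 713 CPM in 97Q vehicle. All 3 treated sums lay below all 3 vehicle sums. The log2 fold change of Tcp1 was -0.77 (SE 0.264), with an unadjusted p of 0.0166 from edgeR's quasi-likelihood test. Over single cells its median was 394 CPM in 97Q RGFP109 and 661 CPM in 97Q vehicle, and no cell gave more than 9.47% of the counts of either group. Tcp1 overlaps exons of Acat3 and Mrpl18, and 13.9% of its 50-base windows are shared with another locus.

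Cct2 had 241, 374 and 331 CPM in 97Q RGFP109, against 395, 506 and 487 CPM in 97Q vehicle, also without overlap, and its log2 fold change was -0.47 (SE 0.232). Hspe1, the lid of the mitochondrial chaperonin, had 28.9, 18.2 and 29.2 CPM in 97Q RGFP109, against 40.3, 40.5 and 39.3 CPM in 97Q vehicle, the third member without overlap. These 3 of 45 members, whose treated sums all lay below the vehicle sums, compare with 3.39% of all genes. The log2 fold change of Hspe1 was -0.57 (SE 0.485), and Hspd1, which shares its promoter stretch, had 0.06 (SE 0.320) with 124, 87.7 and 126.6 CPM in 97Q RGFP109, against 113, 108 and 128 CPM in 97Q vehicle.

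The TRiC subunits had a median log2 fold change of -0.46 with RGFP109 in 97Q neurons, or -0.27 without batch 1, and the medians of the within-batch differences were -0.42, -0.66 and -0.36. Of the 8 subunits 7 were lower and 5 of them in every batch. Cct5 had 298, 527 and 521 CPM in 97Q RGFP109, against 402, 980 and 721 CPM in 97Q vehicle, a log2 fold change of -0.48 (SE 0.230). Cct6a had -0.45 (SE 0.256), Cct8 -0.54 (SE 0.308), Cct7 -0.20 (SE 0.183) and Cct3 -0.15 (SE 0.243). The within-batch differences of Cct3 were -0.35, 0.10 and -0.52, and its log2 fold change turned to 0.0053 without batch 1 and to 0.10 without batch 3. Cct4 ran the other way, with 221, 166 and 248 CPM in 97Q RGFP109, against 240, 146 and 170 CPM in 97Q vehicle, a log2 fold change of 0.34 (SE 0.303). Cct8 was lower in batches 1 and 2 and higher in batch 3.

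**Figure D2:**
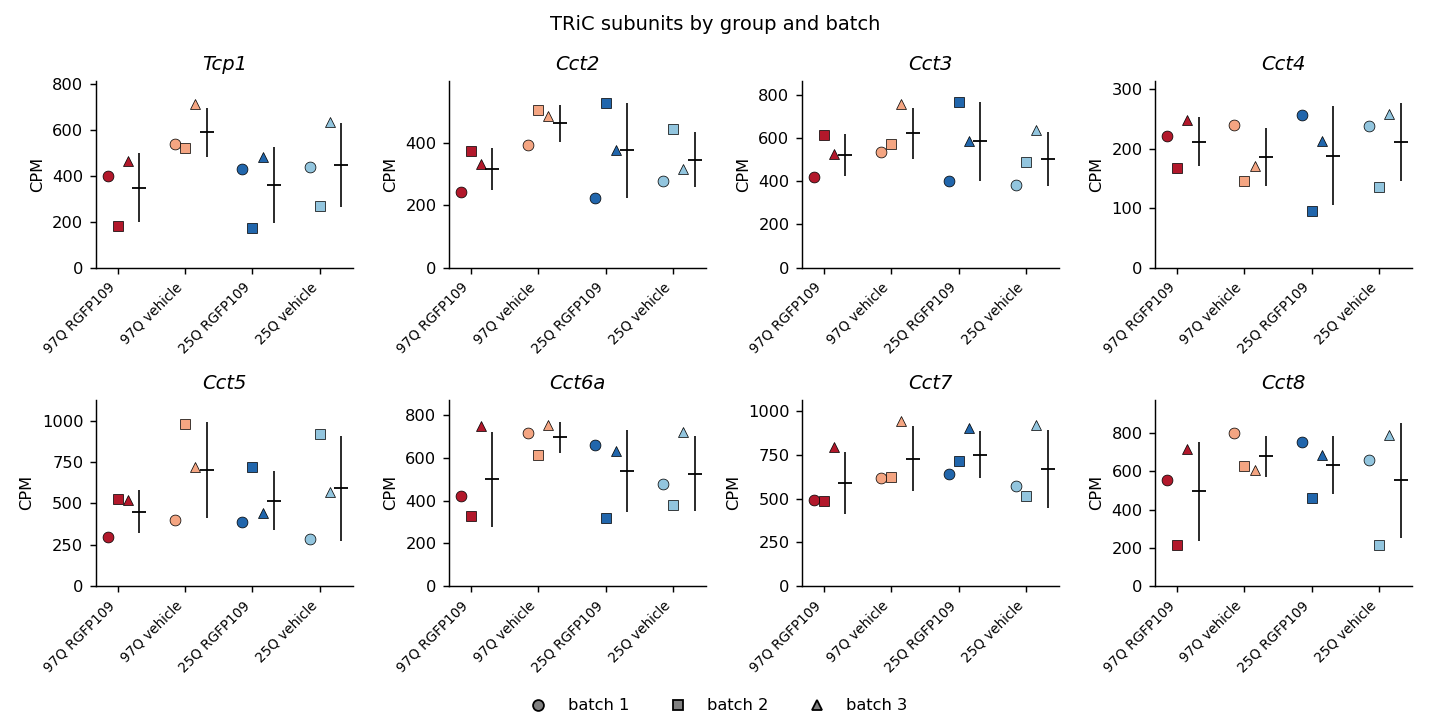
CPM of the 8 TRiC subunits in the 12 sums, by group, with a symbol for each batch and the mean ± SD of 3 sums drawn to the right of the points. For Tcp1 and Cct2 the 3 points of 97Q RGFP109 lie below the 3 of 97Q vehicle, and for Cct4 they do not.

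Hsp90ab1 had 1602, 1670 and 2497 CPM in 97Q RGFP109, against 1977, 2832 and 3359 CPM in 97Q vehicle. It was lower within each batch, with overlapping groups, a log2 fold change of -0.38 (SE 0.181) and an unadjusted p of 0.0608 from edgeR's quasi-likelihood test. Hsp90aa1 had 169, 321 and 325 CPM in 97Q RGFP109, against 274, 486 and 424 CPM in 97Q vehicle. Ahsa1, which speeds up the ATPase of HSP90, had 111, 31.2 and 169 CPM in 97Q RGFP109, against 141, 105 and 222 CPM in 97Q vehicle, a log2 fold change of -0.72 (SE 0.341). Of the 17 further partners of HSP90 and HSP70, 14 were lower with a median of -0.28, and prefoldin had all 6 subunits lower with a median of -0.25, while the 16 further J proteins had a median of 0.08 with 7 lower. The endoplasmic reticulum list had 10 of 17 lower with a median of -0.05. The 9 pan-neuronal markers summed to 3966, 3479 and 7334 CPM in 97Q RGFP109, against 4931, 6795 and 6832 CPM in 97Q vehicle, and the 15 astrocyte markers to 1227, 1373 and 1135 CPM against 987, 841 and 505 CPM. Their part in the lower chaperone values was not tested, and without the glial-rich neurons the median of the members was -0.26.

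**Figure D3:**
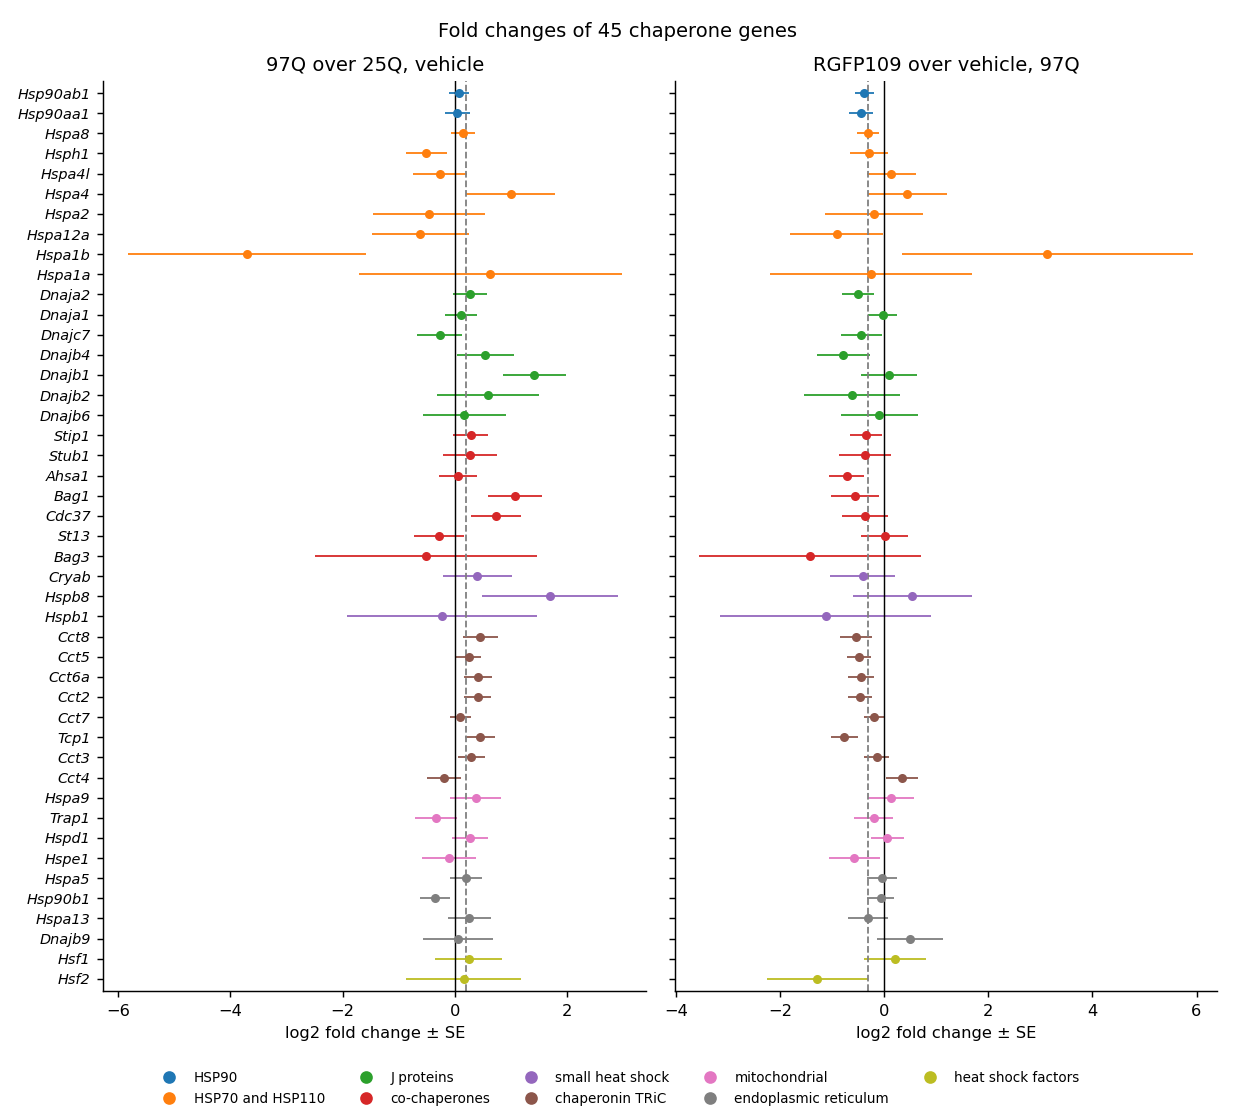
Log2 fold changes with standard errors of the 45 genes, 97Q over 25Q under vehicle on the left and RGFP109 over vehicle in 97Q on the right, coloured by role, with the median of the 45 dashed at 0.20 and -0.32. Both panels share the 97Q vehicle sums, and the widest bars belong to the nearly silent Hspa1a, Hspa1b, Hspb1 and Bag3.

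In 25Q neurons the median of the members lay close to that of all genes. The 45 had a median log2 fold change of -0.07 with RGFP109 (-0.0079 without batch 2), with 18 higher and 27 lower, beside 0.00 over all genes. No gene was called (0.0%) by the quasi-likelihood test of edgeR with Benjamini-Hochberg adjustment, and Dnajb1 was the 1 member of 45 at an unadjusted p under 0.05, against 2.52% of all genes, while DESeq2 called 152 genes and no member. In all 3 batches 4 members were higher and 6 were lower, against 12.3% and 13.8% of all genes. The 6 were Tcp1, Hspa8, Dnaja2, Ahsa1, Hsp90b1 and Hsf1. Of these, Tcp1, Hspa8, Dnaja2 and Ahsa1 were also lower with the drug in every batch of neurons with the expanded tract. TRiC had 5 of 8 subunits higher and a median of 0.06, which turned to -0.0211 without batch 1. Tcp1 had 430, 171 and 482 CPM in 25Q RGFP109, against 440, 270 and 633 CPM in 25Q vehicle, with overlapping groups. Dnajb1 had 111, 47.2 and 43.6 CPM in 25Q RGFP109, against 66.2, 6.86 and 28.7 CPM in 25Q vehicle, a log2 fold change of 1.42 (SE 0.567). Hspb8, a small heat shock protein that works with Bag3, had 36.9, 18.6 and 37.8 CPM in 25Q RGFP109, against 29.5, 0.0540 and 8.50 CPM in 25Q vehicle, and its batch 2 sum under vehicle rests on 1 count. Ahsa1 had 121, 36.7 and 135 CPM in 25Q RGFP109, against 130, 84.9 and 247 CPM in 25Q vehicle, a log2 fold change of -0.71 (SE 0.342). Hsf1 was lower within each batch, with 23.4, 12.5 and 7.18 CPM in 25Q RGFP109, against 46.7, 14.1 and 27.8 CPM in 25Q vehicle.

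With RGFP109 in both groups, 97Q and 25Q neurons had a median log2 fold change over the members of -0.06 (0.0001 without the glial-rich neurons), with 21 higher and 24 lower, beside 0.00 over all genes. No gene was called (0.0%) by the quasi-likelihood test of edgeR with Benjamini-Hochberg adjustment. At an unadjusted p under 0.05 there were 2 of 45 members, Dnajc7 and Hsf1, against 3.74% of all genes, and DESeq2 called 277 genes. In all 3 batches 4 members were higher and 8 were lower, against 13.3% and 13.4% of all genes. Hsf1 had 50.0, 26.1 and 32.7 CPM in 97Q RGFP109, against 23.4, 12.5 and 7.18 CPM in 25Q RGFP109. Under vehicle Hsf1 had 50.35, 26.8 and 26.7 CPM in 97Q and 46.7, 14.1 and 27.8 CPM in 25Q. The 97Q sums under drug thus lay close to those under vehicle, and the 25Q sums under drug were the low ones. Medians over single cells of batch 3 did not follow the sums. They were 20.1 CPM of Hsf1 in 97Q RGFP109 and 0.867 CPM in 25Q RGFP109, but 0.937 CPM in 97Q vehicle and 18.1 CPM in 25Q vehicle. All 3 sums of Hsf1 in 97Q lay above those in 25Q, with a log2 fold change of 1.49 (SE 0.603) and an adjusted p of 1.00 by the quasi-likelihood test of edgeR with Benjamini-Hochberg adjustment. DESeq2 gave Hsf1 the same size of change with an adjusted p of 0.0168, the only member called by any alternative, while the other alternatives gave Hsf1 at least 0.763. Dnajc7, a J protein that binds HSP70 and HSP90, had 99.5, 75.8 and 151 CPM in 97Q RGFP109, against 195, 303 and 247 CPM in 25Q RGFP109, without overlap. Its log2 fold change was -1.16 (SE 0.399). Hsph1, with 170, 67.2 and 153 CPM in 97Q RGFP109 against 258, 203.5 and 192 CPM in 25Q RGFP109, and Hspe1 also lay below without overlap. Thus all 3 sums lay above in 1 of 45 members, against 3.60% of all genes, and below in 3, against 3.58%. Dnajc7 overlaps exons of Cnp and Nkiras2, and Cnp is a gene of oligodendrocytes. The 8 oligodendrocyte lineage markers summed to 151, 46.3 and 88.8 CPM in 97Q RGFP109, against 236, 174 and 96.0 CPM in 25Q RGFP109, and their part in the Dnajc7 values was not tested.

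The difference between the drug's effects in 97Q and in 25Q neurons was tested as an interaction. No gene was called (0.0%) by the quasi-likelihood test of edgeR with Benjamini-Hochberg adjustment, and 0 of 45 members had an unadjusted p under 0.05, against 2.60% of all genes, while DESeq2 called 70 genes and no member. The members had a median of -0.29, with 13 higher and 32 lower, beside -0.04 over all genes, and in all 3 batches 2 were higher and 10 lower, against 12.1% and 13.8% of all genes. TRiC had 7 of 8 subunits below 0 with a median of -0.42, or -0.26 without batch 1. Cct8 was the member with the smallest unadjusted p, 0.0759 in edgeR's quasi-likelihood test, at -0.87 (SE 0.438), and Dnajb1 was at -1.33 (SE 0.778). A difference between the drug's effects on TRiC in 97Q and 25Q neurons was thus not shown.

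The batch means of most members lay further apart than the group means. From the 12 sums on the log2(CPM + 1) scale, the range of the 3 batch means was larger than the range of the 4 group means for 34 of the 45 members, or 75.6%, against 53.1% of all genes tested. The median range over the members was 0.95 between batches and 0.56 between groups, beside 1.13 and 1.08 over all genes. Bag1 had the widest range between batches, 3.28, with batch means of 6.07, 6.15 and 2.86 in batches 1, 2 and 3. Trap1, the mitochondrial HSP90, had batch means of 6.52, 5.17 and 7.44. Dnajb4, a J protein of the cytosol, was highest in batch 2, with 8.94 against 7.20 in batch 1 and 7.51 in batch 3. All contrasts above have batch as a term of the fit.

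Of the 3 small heat shock proteins, Cryab and Hspb8 were far higher in astrocytes than in neurons. In batch 3, Cryab (alpha-B crystallin) had 492 to 3290 CPM in the 14 astrocytes with a median of 1144, against 0.305 to 190 CPM in the 9 empty vector neurons with a median of 6.57. Hspb8 had 93.7 to 4642 CPM in astrocytes with a median of 1010, against 0 to 35.7 CPM in empty vector neurons with a median of 0.931. Neither gene overlapped between the astrocytes and the empty vector neurons. The mean differences on the log2(CPM + 1) scale were 7.28 for Cryab and 8.06 for Hspb8. Both genes did overlap between astrocytes and other neurons of batch 3. There the highest cells reached 528 CPM of Cryab in 97Q RGFP109 and 224 CPM of Hspb8 in 25Q RGFP109. The share of all genes without such overlap was not counted. Hspb1 was near silent in both, with a count in 5 of 14 astrocytes and 2 of 9 empty vector neurons and a difference of 0.05. Bag3, the co-chaperone that binds Hspb8, had 0.475 to 96.6 CPM in astrocytes with a median of 21.4, against 0 to 0.840 CPM in empty vector neurons, of which 2 of 9 had a count. Its difference was 3.87. Hspa5, with a median of 1486 CPM in astrocytes and 571 CPM in empty vector neurons, and Hsp90b1, with 696 CPM in astrocytes and 292 CPM in empty vector neurons, were also higher in astrocytes, by 1.07 and 1.20. For Hsp90b1 the empty vector neurons stood low among the neurons of batch 3, whose other groups had medians of 464 CPM in 97Q RGFP109, 553 CPM in 97Q vehicle, 560.0 CPM in 25Q RGFP109 and 689 CPM in 25Q vehicle. Dnajb2 differed by 1.96 and St13, an HSP70 cofactor, by 1.37. The St13 median was 171 CPM in astrocytes and 63.2 CPM in empty vector neurons, against 108 to 162 CPM in the other groups of neurons of batch 3.

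Most other members were lower in astrocytes. Over the 45 members the median difference was -0.77, beside -0.21 over 15956 genes, with 12 members higher. A difference of at least 1 on the log2 scale was seen upward in 7 members, against 19.8% of all genes, and downward in 18 members, against 31.7%. Cells are not replicates of a culture and each kind is 1 batch, so no test was run. Dnajb1 had 0.160 to 98.5 CPM in astrocytes with a median of 4.74, against 56.9 to 340 CPM in empty vector neurons with a median of 168, a difference of -4.15. Hspa9, the mitochondrial HSP70, differed by -3.27, with a median of 51.3 CPM in astrocytes and 424 CPM in empty vector neurons. In the other groups of neurons of batch 3 the Hspa9 median was 93.0 to 201 CPM, so the empty vector stood high. Hsp90aa1 had 73.8 to 158 CPM in astrocytes, against 167 to 362 CPM in empty vector neurons, without overlap and with a difference of -1.33. The other groups of neurons of batch 3 overlapped with the astrocytes in Hsp90aa1, with lowest cells at 95.9 to 127.5 CPM. Hspa12a differed by -2.81, Dnaja2 by -2.69 and Hsph1 by -2.32. The Dnaja2 median was 306 CPM in empty vector neurons, against 92.9 to 186 CPM in the other groups of neurons of batch 3. That of Hsph1 was 250 CPM, against 98.4 to 130 CPM. The empty vector neurons also stood highest of the neurons for Dnajb1, as described below. Of TRiC, Cct4 differed most, by -2.25, and Cct5 least, by -0.39. The astrocytes were untreated and from cortex and the neurons from striatum, so cell type, region and virus cannot be told apart here.

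**Figure D4:**
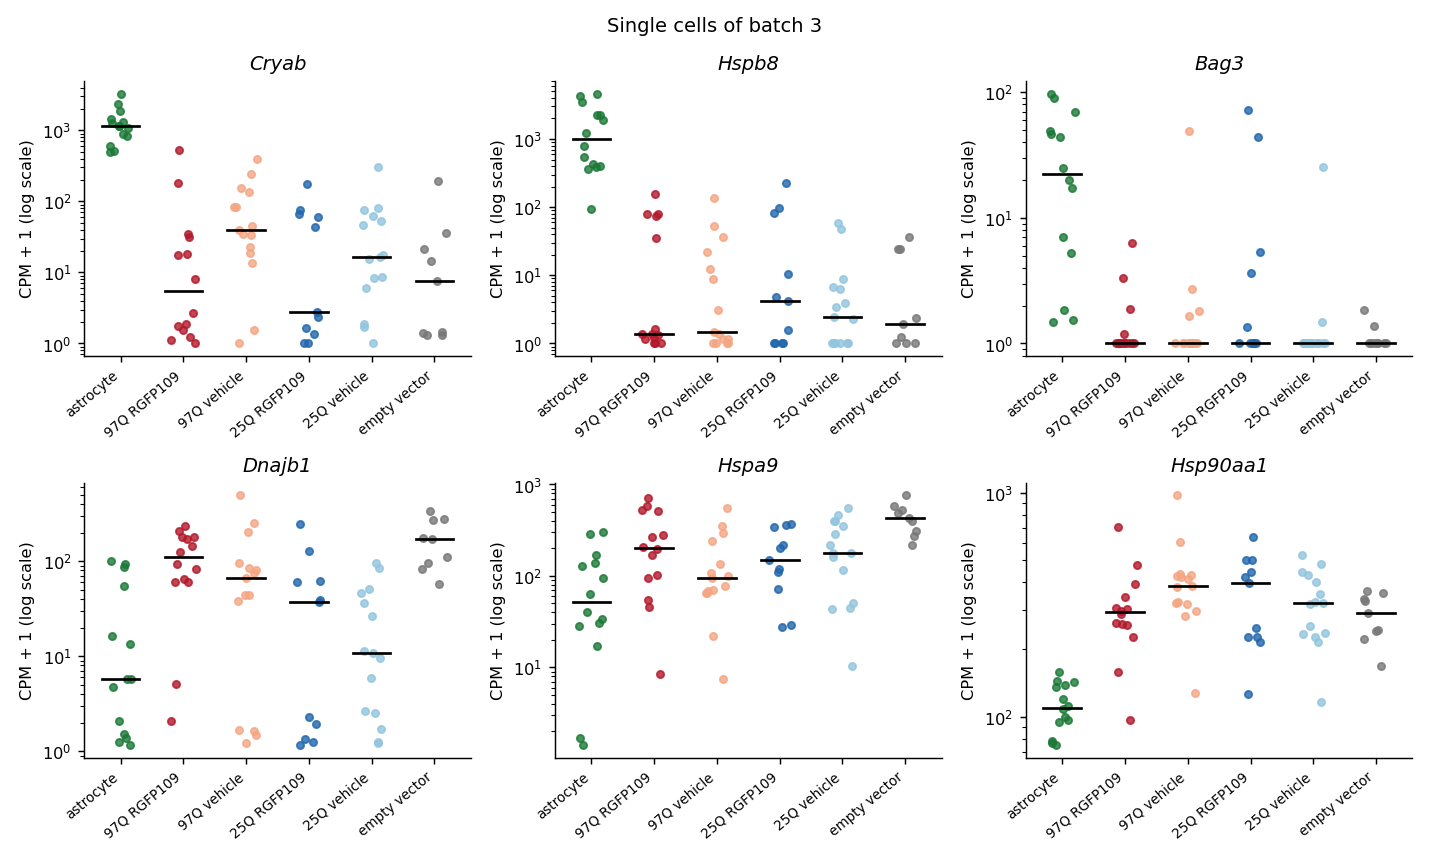
Single cells of batch 3 in 6 groups, as CPM + 1 on a log axis, with the median as a bar. Cryab and Hspb8 in the 14 astrocytes lie above all 9 empty vector neurons, while Dnajb1 medians run from 4.74 CPM in astrocytes and 9.90 CPM in 25Q vehicle to 168 CPM in empty vector neurons.

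The 25Q vehicle neurons of batch 3 were set against the 9 empty vector neurons, with no test. Over the 43 members that passed the filter (Hspb1 and Bag3 did not), the median difference was -0.06, beside -0.05 over 16220 genes. Differences of at least 1 were upward in 3 members, against 8.61% of all genes, and downward in 8, against 16.2%. From summed CPM these counts were 2 upward and 2 downward, and with a pseudocount of 10 they were 1 upward and 4 downward. Dnajb1 differed most, with 0.222 to 95.1 CPM and a median of 9.90 in 25Q vehicle, against 56.9 to 340 CPM and a median of 168 in empty vector neurons, a difference of -3.83. In the same batch the median of Dnajb1 was 108 CPM in 97Q RGFP109, 65.6 CPM in 97Q vehicle and 36.4 CPM in 25Q RGFP109. By the medians of Dnajb1, 25Q vehicle stood lowest of the neurons of batch 3 and the empty vector highest, so 97Q vehicle lay nearer to the empty vector than 25Q vehicle did. Stub1, the ubiquitin ligase CHIP that acts on chaperone substrates, differed by -2.11, Hspa9 by -1.44 and Hsph1 by -1.36, while Hspa12a differed by 1.71, Cryab by 1.18 and Hsp90b1 by 1.03. The medians of Hspa12a were close, 30.3 CPM in 25Q vehicle and 28.0 CPM in empty vector neurons, with a count in 15 of 15 and in 6 of 9 neurons.

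Across the 113 neurons, with the mean of each group and batch removed, some members varied together. Pearson's r of log2(CPM + 1) was 0.72 for Hspa8 and Cct7, 0.67 for Hsp90ab1 and Hspa8, 0.64 for Hsp90ab1 and both Cct7 and Dnaja1, and 0.60 for Hsp90ab1 and Cct5. A second set held Cct6a and Cct8 at 0.68, and Cct4 and Cct8 at 0.55. Within TRiC the median over 28 pairs was 0.35, beside 0.09 over all 990 pairs of members, and the lowest pair was Cct4 and Cct5 at -0.12. The 990 pairs include nearly silent members, such as Hspb1 with a count in 25.0% of the neurons with a transgene. Pairs of like abundance were not compared. In the endoplasmic reticulum Hspa5 and Hsp90b1 had 0.62, while the median over the 6 pairs of that role was -0.03. The median was 0.05 over the 28 pairs of HSP70 and HSP110 genes and 0.0041 over the 6 mitochondrial pairs. Hspd1 and Hspe1, which share the promoter stretch printed above, had 0.06. Points of a cell share its library and depth, so these values describe these neurons and carry no p.

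Cryab, Hspb8 and Bag3 formed a block. Cryab and Hspb8 had r = 0.65, Cryab and Bag3 0.49, and Hspb8 and Bag3 0.44. Hspb1, the other small heat shock protein, had 0.36 with Hspb8, 0.35 with Cryab and 0.26 with Bag3. Cryab, Hspb8 and Bag3 led the members in their relation to the summed astrocyte markers across the 113 neurons, with r of 0.57 for Cryab, 0.56 for Hspb8 and 0.41 for Bag3. Without the 12 glial-rich neurons these were 0.40, 0.39 and 0.31 over 101 neurons. Cryab had a median of 279 CPM in the 12 and 13.9 CPM in the others, and Hspb8 had 126.5 CPM in the 12 and 0.472 CPM in the others. The part of astrocyte RNA in the Cryab and Hspb8 counts of neurons was not tested.

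**Figure D5:**
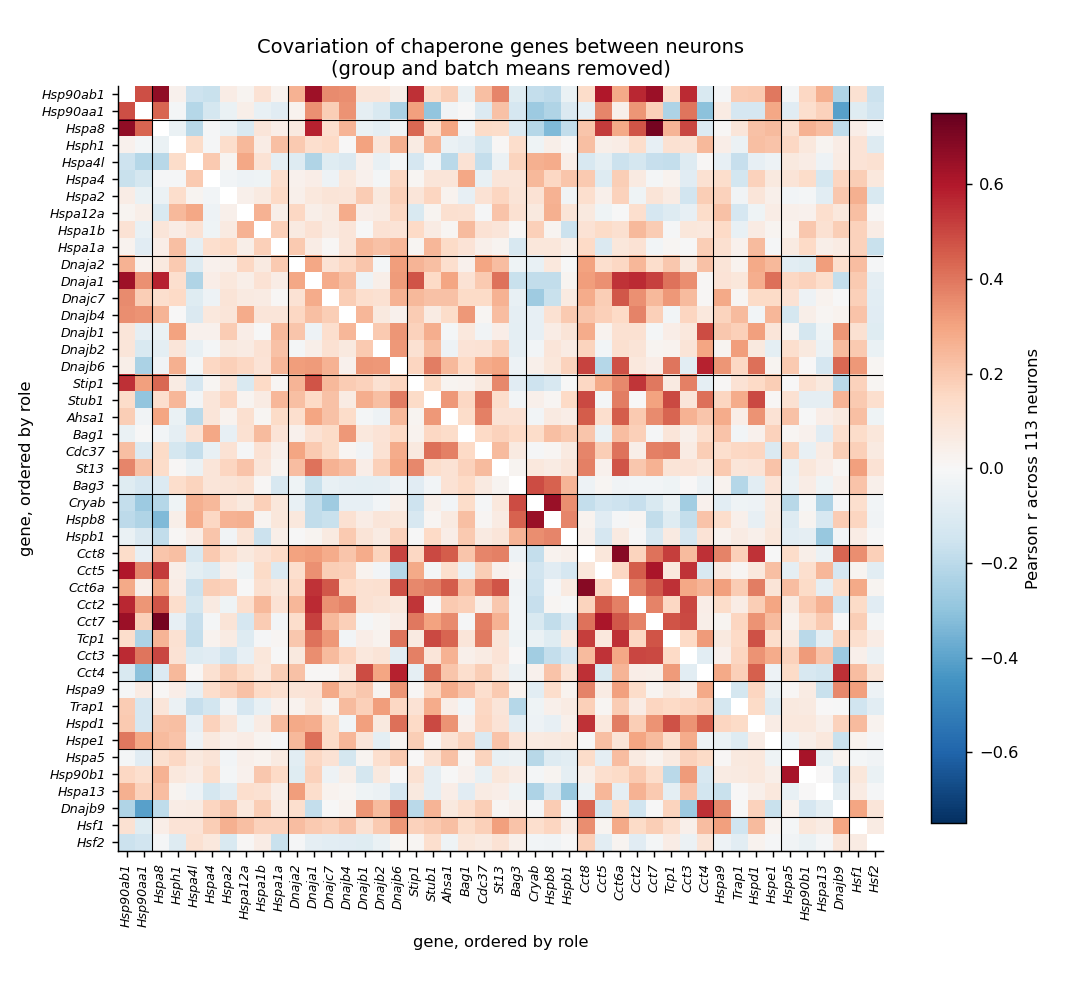
Pearson's r between the 45 genes across 113 neurons, on log2(CPM + 1) with the mean of each group and batch removed, ordered by role and with lines between roles. The block of Cryab, Hspb8 and Bag3 and the TRiC block stand out, with Hsp90ab1 and Hspa8 tied to Cct7.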

How the data were processed

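RNA was measured in 113 single neurons and 14 astrocytes with SMARTer cDNA and Nextera XT libraries, per the labels. The authors deposited raw counts of reads per Ensembl gene, with no normalization and no molecular identifiers. Per the submitters' processing notes, FastQC, Trimmomatic 0.36, STAR 2.5 and HTSeq 0.9.1 were used on GRCm38. The sources used here do not give the annotation or whether counting used strand. Every column was matched to a cell by run name, and 53274 of 53465 identifiers were matched to a symbol. Positions are from GENCODE M21.

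Counts were summed by group and batch into 12 sums of 8665881 to 76217208 counts. The labels give the batch number of every cell, so batch was the block. The cell numbers in the titles pair nothing. Genes passed edgeR's filterByExpr and a count in at least 20% of the 104 cells, leaving 15091. TMM and edgeR 4.0.16 robust quasi-likelihood fits with group and batch terms (6 residual degrees of freedom, common coefficient of variation 0.928) gave two-sided tests, adjusted by Benjamini-Hochberg over all genes at 0.05. With batch as a term, the p-values rest on how unevenly a group effect repeated over the batches, and that unevenness may be technical. Differences within a batch and between batch 3 cells are on the log2(CPM + 1) scale, which understates low genes. Alternatives were RLE factors, no minimum share of cells, DESeq2 1.42.0, no block, leaving out each batch, leaving out glial-rich neurons, and cells weighted equally in limma 3.58.1. The fit was also run on counts simulated with a common spread and no batch differences. Such counts lack the batch differences of the real sums, so they do not test the fit under them.

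Named members were the 3 with the smallest p in each direction per contrast, the inducible genes with both factors, the highest member of each role, and the 5 largest astrocyte differences each way. Members, lists and tests were chosen with earlier results of these data known.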

Additional observations from a re-analysis of the deposited data

Results flagged for a closer look

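In the 9 empty vector neurons, each named member was checked for a cell far from the others. Of 32 members 4 had one. The nominal rate of 1 in 20 for this check assumes normal values, which CPM of single cells are not. The count of 4 is therefore not read as an excess. Hspa1a was at 23.4 CPM in 1 neuron, with the next at 1.36 CPM, and that neuron held 89.5% of the group's Hspa1a counts. Cryab was at 190 CPM in 1 neuron, with the next at 35.3 CPM. Dnaja1 was at 514 CPM in 1 neuron, with the next at 379 CPM. Bag3 was at 0.840 CPM in 1 neuron, with the next at 0.366 CPM, in a group with a count in 2 of 9 neurons, so it rests on a handful of reads and says little.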

How the results depend on the processing

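DESeq2 called 213 genes for 97Q against 25Q under vehicle, 109 for RGFP109 in 97Q, 152 for RGFP109 in 25Q, 277 for 97Q against 25Q under RGFP109 and 70 for the interaction, against 0 in each by edgeR; limma with cells weighted equally called 2 under RGFP109. All other alternatives called 0, the fit without the replicate block included. Without the block the median over the members was 0.24 for 97Q against 25Q under vehicle and -0.33 for RGFP109 in 97Q. Leaving out each batch in turn, the median over the members ranged from 0.12 to 0.20 for 97Q against 25Q under vehicle, from -0.34 to -0.29 for RGFP109 in 97Q and from -0.0708 to -0.0079 for RGFP109 in 25Q. The TRiC median ranged from 0.20 to 0.29, from -0.44 to -0.27 and from -0.0211 to 0.0645 in the same contrasts, so in 25Q it changed sign, at -0.0211 without batch 1. The median of the members for 97Q against 25Q under vehicle was 0.27 with cells weighted equally, and under RGFP109 it was 0.0001 without glial-rich neurons. For astrocytes against empty vector the median was -0.65 from summed CPM and -0.65 with a pseudocount of 10, and for 25Q vehicle against empty vector -0.0173 and -0.0530, where the members at least 1 lower numbered 2 and 4 in place of 8 and those at least 1 higher 2 and 1 in place of 3. Of 387 alternatives for named members and TRiC subunits, 382 kept direction and side of the threshold, 1 passed it (Hsf1 with DESeq2) and 4 changed sign. Leaving out each batch, Cct8 ranged from -0.0230 (without batch 2) to 0.74 for 97Q against 25Q under vehicle, and for RGFP109 in 97Q Cct3 ranged from -0.47 to 0.10, with 0.0053 without batch 1, and Hspa1b from -2.71 (without batch 1) to 5.90, fitted values that rest on few counts and are no measure of size. The causes were not tested. With 3 sums a group, a count of 0 says little about any member.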
